A study of Homo sapiens with 18 samples.

Results

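The 7 genes described here are STX16, NPEPL1 and their readthrough gene STX16-NPEPL1, the kinetochore gene PMF1, the osteocalcin gene BGLAP and their readthrough gene PMF1-BGLAP, and RAB11FIP4, out of 60675 gene IDs in the tables. They were chosen by name, because readthrough or overlapping genes at 2 loci had high values in the A41 libraries and RAB11FIP4 had a like pattern. The A41 values of these 7 genes, which chose them, are therefore given as a description with no test, as are all values of RAB11FIP4, whose pattern over the libraries chose it. Tests of A41 against ethanol are given only for other genes. RNA was measured by sequencing in U87, an established human glioblastoma line with no genetic modification per the labels, and the 6 groups of 3 libraries were cells given 100 nM of A41, A34, A80, A98 or bexarotene for 24 h, or the ethanol control. All groups shared the same serum-containing medium, a single treatment and depletion of ribosomal RNA before random priming. For A98 the deposited tables are named A90 instead, and some replicate numbers in table names differ from the sample titles, so groups and replicates are named here by the labels alone. A34, A41, A80 and A98 are code names of rexinoids, ligands of the retinoid X receptors, and bexarotene is a rexinoid in clinical use that the study treated as a second control. The labels call the libraries triplicates without saying whether each had its own dish of cells, so a p-value here sets a difference against spread among libraries that could be technical only. In bulk RNA a higher level in every cell and a larger share of cells with the transcript cannot be told apart.

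A readthrough gene is annotated where transcription runs past the end of one gene and into the next one on the same strand, and the resulting RNA carries exons of both. STX16 encodes syntaxin 16, a SNARE protein that lets endosome-derived vesicles fuse with the trans-Golgi network, and NPEPL1 encodes an aminopeptidase-like protein. PMF1 is a subunit of the MIS12 complex, which links centromeres to microtubule-binding proteins at mitosis. BGLAP encodes osteocalcin, a vitamin K-dependent protein of bone matrix made by osteoblasts, and the vitamin D receptor bound with a retinoid X receptor is a textbook activator of its promoter. RAB11FIP4 encodes an effector of RAB11 GTPases, which direct recycling endosomes.

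Levels are TPM, the authors' length-normalised transcript abundance, divided by a factor per library that brings the typical gene to the same level everywhere, and are called scaled TPM. All 7 genes were listed in each of the 18 libraries, and all 7 passed the filter on low values, which asked for 1 TPM in at least 3 libraries. The libraries rested on 1.31 to 3.89 gigabases of aligned sequence, which limits most the precision of genes near 1 TPM. Ribosomal RNA took 56.1% of TPM in A41 replicate 2, 44.9% in bexarotene replicate 1 and 35.5% in ethanol replicate 2, against 0.317% to 4.32% in the other 15 libraries. The glioma markers VIM and CD44 averaged 4018 and 1005 scaled TPM over the 18 libraries, and of the other glioma and astrocyte markers SLC1A3 averaged 20.7, NES 7.63, GFAP 0.780, AQP4 0.0470 and SOX2 0.0150. Of the osteoblast markers, IBSP, DMP1, SP7 and ALPL had no library above 0.332 scaled TPM, while PHEX averaged 1.39 and RUNX2 13.5.

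STX16-NPEPL1 (ENSG00000254995) spans chromosome 20 from 58651434 to 58715410 on the plus strand of GRCh38, and overlaps both STX16 (ENSG00000124222, 58651253 to 58679526) and NPEPL1 (ENSG00000215440, 58689131 to 58719238). In GENCODE release 29, which gives these 3 genes the same spans as the deposited tables, 81.1% of its exonic bases also belong to one of the partner genes. That release lists 2 transcripts for the readthrough gene. The long one joins 23 exons over 3433 bases and is classed as a target of nonsense-mediated decay. The short one has 557 bases in 2 exons and is classed as a retained intron: its first exon (58673638 to 58673711) lies in STX16 and its second (58691724 to 58692206) in the span of NPEPL1. The last 376 bases of that second exon, from 58691831 on, belong to no other annotated exon of the 3 genes. No other entry of the tables overlaps this exon on either strand, and the 6 other entries that overlap any of the 7 genes reached at most 0.926 scaled TPM.

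The first 300 of those 376 bases are printed because the readthrough gene's high values are estimated below to fall on the transcript that carries them. They lie at chr20:58691831-58692130 on the plus strand of GRCh38 and were read from the GENCODE 29 transcript. Capitals mark AGGTCA, the half-site of nuclear receptors, and GGGTGA, a form of it found in vitamin D response elements, on either strand.
STX16-NPEPL1 short transcript, start of its own exonic sequence: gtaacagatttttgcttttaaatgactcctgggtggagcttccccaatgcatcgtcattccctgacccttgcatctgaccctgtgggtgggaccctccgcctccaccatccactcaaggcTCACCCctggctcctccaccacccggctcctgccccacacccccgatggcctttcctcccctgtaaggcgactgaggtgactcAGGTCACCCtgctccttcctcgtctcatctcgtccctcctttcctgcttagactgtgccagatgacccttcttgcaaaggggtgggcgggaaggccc
The window held AGGTCA once, at 58692034 to 58692039, and GGGTGA on the minus strand at 58691951 to 58691956 and at 58692037 to 58692042, where it overlaps the AGGTCA. Of 27732 retained-intron transcripts, AGGTCA was found at least once in the last 300 bases of 19.2% and GGGTGA in those of 17.5%. The printed window ends at 58692130, before the end of its transcript at 58692206, so those shares are for a stretch placed somewhat differently. These matches describe letters in the window and say nothing of binding.

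STX16-NPEPL1 was the most changeable of the 7 genes. It had 164, 442 and 235 scaled TPM in the 3 A41 libraries (replicates 1, 2 and 3). In A34 it had 0.742, 1.45 and 333 scaled TPM. All 3 A41 libraries were high, and so was 1 A34 library, replicate 3, which lay inside the A41 range. The gene had 0.323, 0.246 and 1.69 scaled TPM in A80, and 0.239, 0.314 and 0.508 in A98. It had 0.586, 0.243 and 0.501 in bexarotene, and 0.251, 0.435 and 1.81 in ethanol. No library fell between the 14 low ones, at or below 1.81, and the 4 high ones. On the TPM as deposited the 4 high values were 186, 184 and 267 in A41 and 347 in A34 replicate 3. The A41 mean was 280.1 ± 144 scaled TPM and the ethanol mean 0.832 ± 0.851 (SD, n = 3 each), a difference of 7.23 on the log2(scaled TPM + 1) scale, given with no test. All 3 A41 libraries lay above all 3 ethanol libraries for 4 of the 7 genes (STX16-NPEPL1, RAB11FIP4, BGLAP and PMF1), beside 7.91% of the 18269 genes tested, and for BGLAP they lay above all 15 other libraries, beside 0.64%. Since the A41 values chose the genes, nothing is read from these counts.

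**Figure D1:**
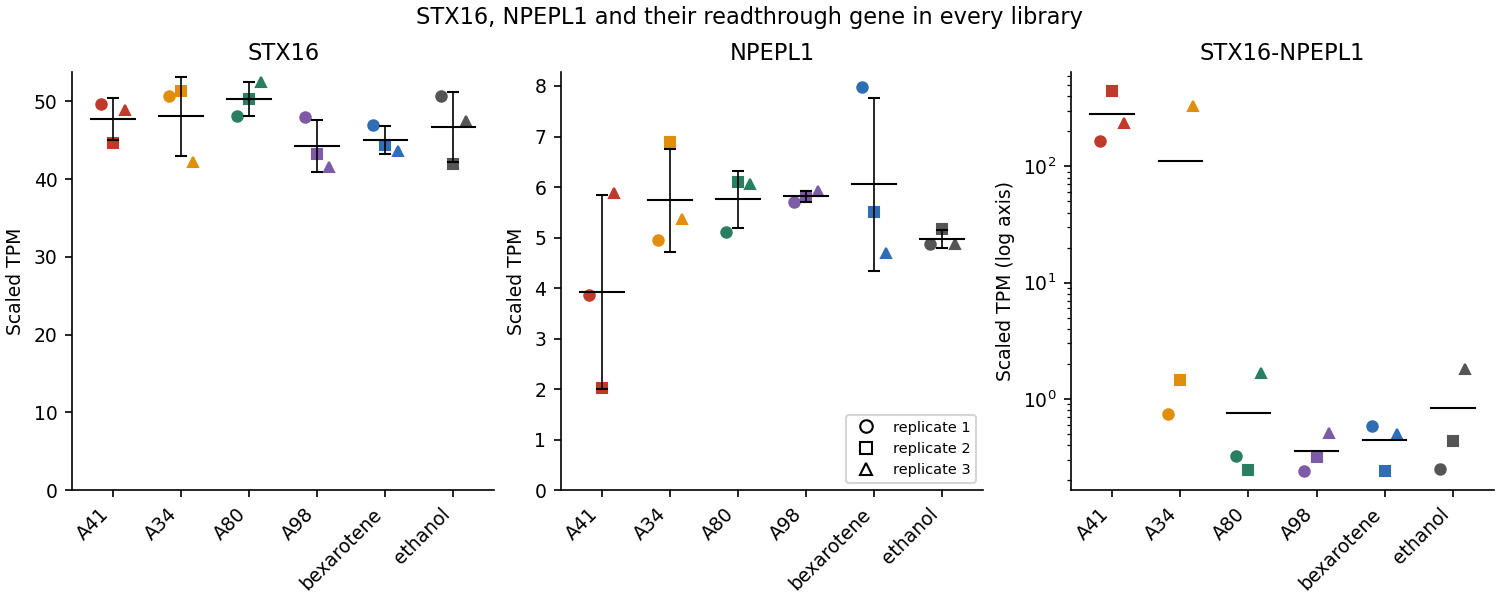
Scaled TPM of STX16, NPEPL1 and STX16-NPEPL1 in every library (points, shape by replicate), with group means as lines; STX16 and NPEPL1 have linear axes with SD bars (n = 3) and STX16-NPEPL1 a log axis. STX16 stays between 41.6 and 52.4 in every library, while STX16-NPEPL1 is at 164 or more in the 3 A41 libraries and in A34 replicate 3, and at 1.81 or less in the other 14.

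The partner genes did not follow. STX16 had 49.7, 44.7 and 48.8 scaled TPM in A41, which lay inside its range of 41.6 to 52.4 over the other 15 libraries. STX16 in A41 differed from ethanol by 0.03 on the log2 scale after scaling but by -0.30 on the TPM as deposited, where the median gene moved by -0.27. NPEPL1 had 3.86, 2.03 and 5.88 scaled TPM in A41, against 4.87, 5.18 and 4.88 in ethanol. Its 2 lowest values of the series were A41 replicates 2 and 1, but A41 replicate 3 lay above all 3 ethanol libraries, so the groups overlapped. STX16 and NPEPL1 together had 51.6 ± 4.32 scaled TPM in A41 and 51.7 ± 4.30 in ethanol (SD, n = 3 each).

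The readthrough gene took 75.4%, 90.4% and 81.1% of the scaled TPM summed over the 3 genes in the A41 libraries, and 87.5% in A34 replicate 3. Its share in the other 14 libraries was 0.434% to 3.34%. In aligned bases, which do not depend on transcript length, STX16-NPEPL1 received 62.2, 74.1 and 75.1 bases per megabase aligned in A41, and 106.7 in A34 replicate 3. The other 14 libraries gave it 0.158 to 2.49 per megabase, so the high libraries stood out in reads as well as in TPM. STX16 received 43.2, 21.6 and 42.7 bases per megabase in A41, and 28.9 to 50.3 in those 14. A41 replicate 2, the lowest of these, is also the library with the highest ribosomal RNA share.

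The 2 deposited measures together gave an estimate of which transcript carried the signal. StringTie averages coverage over all exonic bases of a gene, while FPKM sums over transcripts, so their ratio gives the mean length of the transcripts counted. Among genes with a single transcript this implied length was within 1% of the annotated one for 99.8% to 99.9% of genes in each library. The length cancels there, so this checks only that such genes share 1 ratio of coverage to FPKM. Among genes with several transcripts, as here, it lay within the range of the annotated lengths for 87.94% to 89.18%, so the split between transcripts below is an estimate. For STX16-NPEPL1 the implied length was 3433 bases in 8 libraries, the length of the long transcript alone. It was 665, 578 and 559 bases in A41 and 559 bases in A34 replicate 3, close to the 557 bases of the short transcript. On that basis the short transcript held 96.2%, 99.3% and 99.9% of the gene's TPM in A41, and 99.9% in A34 replicate 3. Its mean coverage was 288, 302 and 257 reads per base in A41 and 434 in A34 replicate 3, and at most 2.23 in the other 14 libraries.

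By the same estimate the long readthrough transcript stayed low. It was at 6.19, 3.16 and 0.163 scaled TPM in A41, 0.252 in A34 replicate 3, and 0.0352 to 1.17 in the other 14 libraries. A41 replicates 1 and 2 had its highest levels of the series, but A41 replicate 3 lay among the other libraries. Among the 14 low libraries some also had implied lengths well short of the long transcript, such as A98 replicate 3 at 756 bases and A80 replicate 1 at 877. In A80 replicate 1 the gene had only 0.323 scaled TPM. Its deposited coverage was 0.0534 reads per base there and 0.103 in A98 replicate 3. FPKM was 0.180 and 0.290, too low for the check of implied lengths above. These short lengths rest on few reads, so nothing is read from them. Coverage of the gene was at most 2.15 in the 14 low libraries, so their split between transcripts is imprecise as well. The tables do not give coverage by position, so where in the exons of the short transcript the reads lie was not analysed here.

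**Figure D2:**
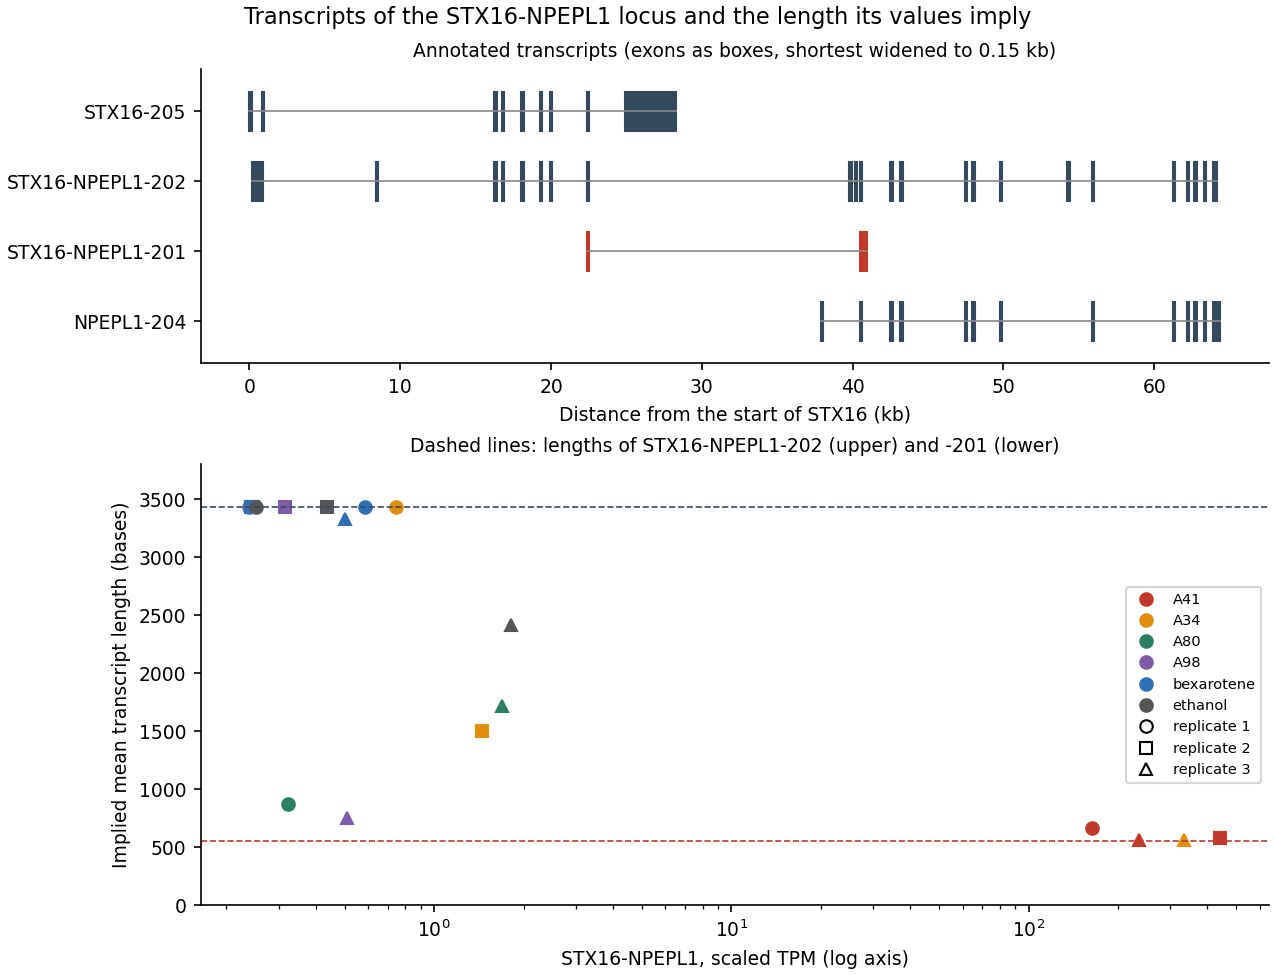
Top: exons (boxes) of 4 annotated transcripts by distance from the start of STX16 in kilobases. Bottom: the mean transcript length implied by coverage and FPKM for STX16-NPEPL1 (bases) against its scaled TPM (log axis), 1 point per library; the 3 A41 libraries and A34 replicate 3 sit at 559 to 665 bases, next to the lower dashed line at 557, and 8 low libraries sit on the upper one at 3433.

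RAB11FIP4 (ENSG00000131242, chromosome 17, 31391675 to 31538211, plus strand) shares no exon with another of the 7 genes. It had 1.31, 2.35 and 1.88 scaled TPM in A41, and 0.174, 0.118 and 1.63 in A34. It had 0.136, 0.0887 and 0.155 in A80, and 0.103, 0.144 and 0.0466 in A98. In bexarotene it had 0.0682, 0.0732 and 0.116, and in ethanol 0.0451, 0.0454 and 0.0404. The same 4 libraries were high as for STX16-NPEPL1, and no other reached 0.175. The gene passed the filter on low values only through these libraries, so its passing is no support. Across the 18 libraries its log2 level and that of STX16-NPEPL1 had a Pearson correlation of 0.985, a description over points that share libraries and in which 4 libraries set the value. Levels this low rest on mean coverage of at most 0.458 reads per base in any library.

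The non-member gene most like both was PPP4R3A, a regulatory subunit of protein phosphatase 4, with correlations of 0.908 with RAB11FIP4 and 0.869 with STX16-NPEPL1. It had 52.1, 80.5 and 68.4 scaled TPM in A41, and 50.7, 49.9 and 71.0 in A34. The 12 libraries of A80, A98, bexarotene and ethanol lay between 42.9 and 52.5. A41 replicates 2 and 3 and A34 replicate 3 thus stood above every other library, while A41 replicate 1 did not. Its mean was 67.0 ± 14.3 scaled TPM in A41 and 46.5 ± 3.85 in ethanol (SD, n = 3 each), given with no test because the gene was picked for this pattern. Over the 12 libraries without A41 and A34 its correlation was -0.345 with STX16-NPEPL1 and 0.191 with RAB11FIP4. After it, LIMK1, FAM89B, PTGES and HOXA5 were most like RAB11FIP4 (0.833 to 0.801), and HOXA5, RPS20P22, H2AC20 and LIMK1 most like STX16-NPEPL1 (0.804 to 0.793).

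A34 replicate 3 lay near the A41 libraries at some other genes and not at others. H2AC20, a histone gene among those most like STX16-NPEPL1, had 553, 556 and 599 scaled TPM in A41 and 453, 468 and 573 in A34, with 528 as the highest of the 12 libraries of A80, A98, bexarotene and ethanol. HOXA5 had 3.45, 3.26 and 3.84 in A41 and 1.12, 1.80 and 1.79 in A34, where replicate 3 was not apart. Both genes were picked for likeness to STX16-NPEPL1 over the same libraries, A34 replicate 3 among them. The high value of that library at H2AC20 is therefore no support for a likeness to A41. CYP26B1, a retinoid-degrading enzyme gene, was looked at after its values were seen. CYP26B1 had 66.5, 54.8 and 51.9 scaled TPM in A41, and 24.1, 17.1 and 13.0 in A34, where replicate 3 was the lowest. In ethanol it had 4.85, 2.99 and 3.98. Ribosomal RNA made up 0.953% of TPM in A34 replicate 3, inside the range of the 15 low libraries.

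**Figure D3:**
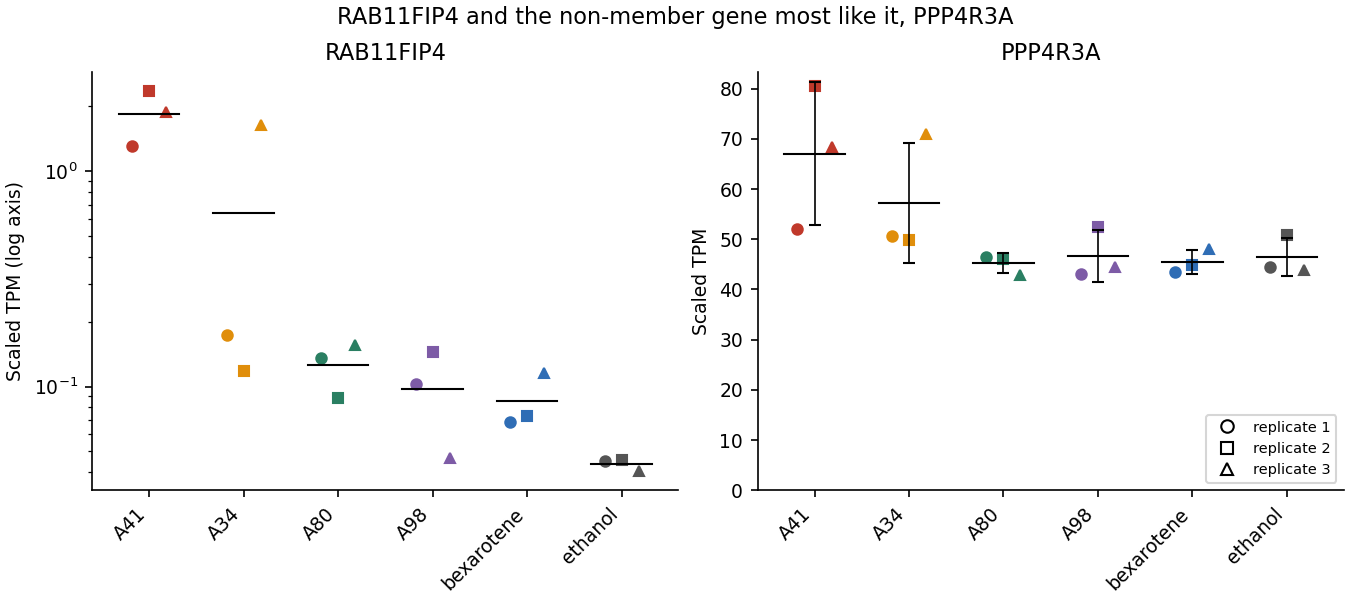
Scaled TPM of RAB11FIP4 (log axis) and of PPP4R3A (linear axis, SD bars, n = 3) in every library, with group means as lines and shape by replicate. RAB11FIP4 is at 1.31 or more in the 3 A41 libraries and A34 replicate 3 and below 0.175 elsewhere; PPP4R3A is at 68.4 or more in 3 of those 4 libraries and at 52.5 or less elsewhere.

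BGLAP (ENSG00000242252, chromosome 1, 156242184 to 156243317 in the tables, plus strand) lies just after PMF1 (ENSG00000160783, 156212993 to 156240042). PMF1-BGLAP (ENSG00000260238, 156212982 to 156243332) covers both, and 97.8% of its exonic bases in GENCODE 29 belong to one of them. The start that the tables give BGLAP equals the RefSeq start but not that of GENCODE 29, so the authors' annotation differs from the latter here. The 250 bases before that start are printed because BGLAP is the member whose A41 libraries all lay above every other library, and its promoter is a known target of a retinoid X receptor partner. They lie at chr1:156241934-156242183 on the plus strand of GRCh38.p14, from RefSeq, with capitals on GGGTGA, read here on the minus strand.
BGLAP, bases before the start: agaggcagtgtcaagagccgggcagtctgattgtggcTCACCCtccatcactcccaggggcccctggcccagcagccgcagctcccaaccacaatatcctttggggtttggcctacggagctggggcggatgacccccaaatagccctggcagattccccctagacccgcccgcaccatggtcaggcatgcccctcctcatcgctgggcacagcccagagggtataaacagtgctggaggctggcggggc
The window held GGGTGA once and neither AGGTCA nor GGTTCA. This match describes letters in the window and says nothing of binding. Whether it belongs to a known response element of the promoter was not examined. Among 35116 RefSeq promoter windows of 300 bases, GGGTGA was in 16.8%, AGGTCA in 13.8% and GGTTCA in 8.62%, counting both strands. The windows of PMF1 and PMF1-BGLAP, which share 281 bases, held GGTTCA once, and those of STX16 and STX16-NPEPL1, which share 270 bases, held none of the 3. The first of 2 NPEPL1 windows held AGGTCA once. RefSeq windows were found for 6 of the 7 genes, all but RAB11FIP4.

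BGLAP had 8.10, 5.46 and 6.71 scaled TPM in A41. It had 0, 1.33 and 0.174 in A34, where replicate 3 was not high, unlike at STX16-NPEPL1. It had 0, 0.300 and 2.08 in A80 and 0, 0.388 and 2.34 in A98. In bexarotene it had 1.28, 0.00931 and 0.161, and in ethanol 0.000303, 0 and 0.0109. The 3 A41 libraries lay above all 15 others, whose highest value was 2.34. The group mean was lowest in ethanol, where no library exceeded 0.0109, but A34, A80 and A98 each had a library listed at 0 too. Deposited coverage of BGLAP was 8.18, 2.15 and 4.47 reads per base in A41, and 0.000313, 0 and 0.0199 in ethanol. With ethanol listed at or near 0, no fold is given, and the difference of 2.94 on the log2(scaled TPM + 1) scale depends on the added 1.

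PMF1-BGLAP had 1.70, 3.24 and 2.56 scaled TPM in A41 and 7.85, 0 and 6.47 in A34. It had 1.32, 4.09 and 0.164 in A80 and 3.28, 0.542 and 0 in A98. In bexarotene it had 0.118, 5.43 and 4.02, and in ethanol 4.74, 0.421 and 2.38. Every group other than A41 held both a library below 1 and one above 3. PMF1, the partner with many more reads, had 32.7, 39.8 and 33.8 scaled TPM in A41, and 27.97, 28.9 and 28.1 in ethanol. The 3 A41 libraries lay above the 3 of ethanol at PMF1, and the difference was 0.31 on the log2 scale after scaling but -0.02 on the TPM as deposited.

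Which of BGLAP and PMF1-BGLAP had the higher level differed by library. In the 15 libraries other than A41, BGLAP reached 1 scaled TPM in 4 and PMF1-BGLAP in 9, never both in the same library, and neither did in 2. In all 3 A41 libraries both were above 1. Reads in the 398 exonic bases that both genes hold can be given to either. The sum of BGLAP and PMF1-BGLAP was 9.26 ± 0.548 scaled TPM in A41 and 2.52 ± 2.16 in ethanol (SD, n = 3 each). The lowest A41 sum, 8.70, lay above the highest of ethanol, 4.74. Sums in A34 were 7.85, 1.33 and 6.65, so 2 of its libraries came nearer to the A41 ones. Outside A41 the sum was not steady, from 0.421 in ethanol replicate 2 to 7.85 in A34 replicate 1. These values are a description, and the part of read assignment in the BGLAP level was not tested.

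**Figure D4:**
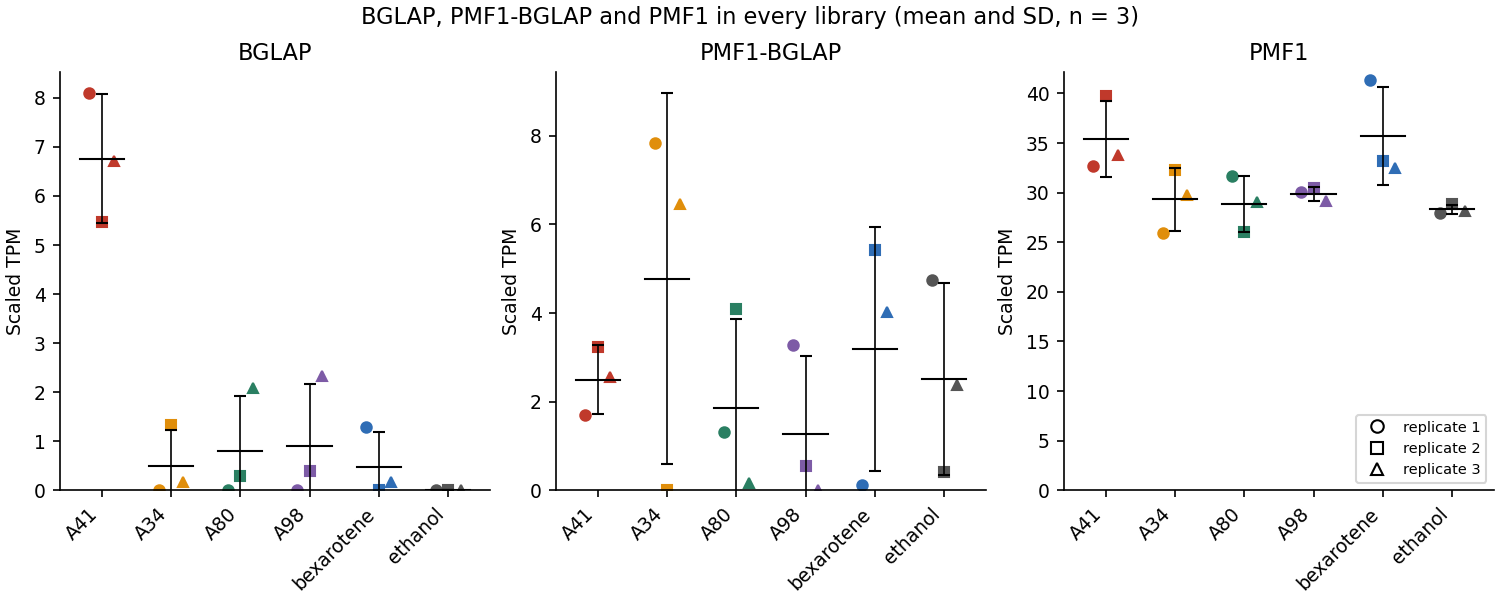
Scaled TPM of BGLAP, PMF1-BGLAP and PMF1 in every library (points, shape by replicate) with group means and SD bars (n = 3, bars cut at 0). BGLAP is at 5.46 to 8.10 in A41 and at 2.34 or less elsewhere, PMF1-BGLAP spreads widely within groups, and PMF1 is lowest in spread in ethanol, at 27.97 to 28.9.

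**Figure D5:**
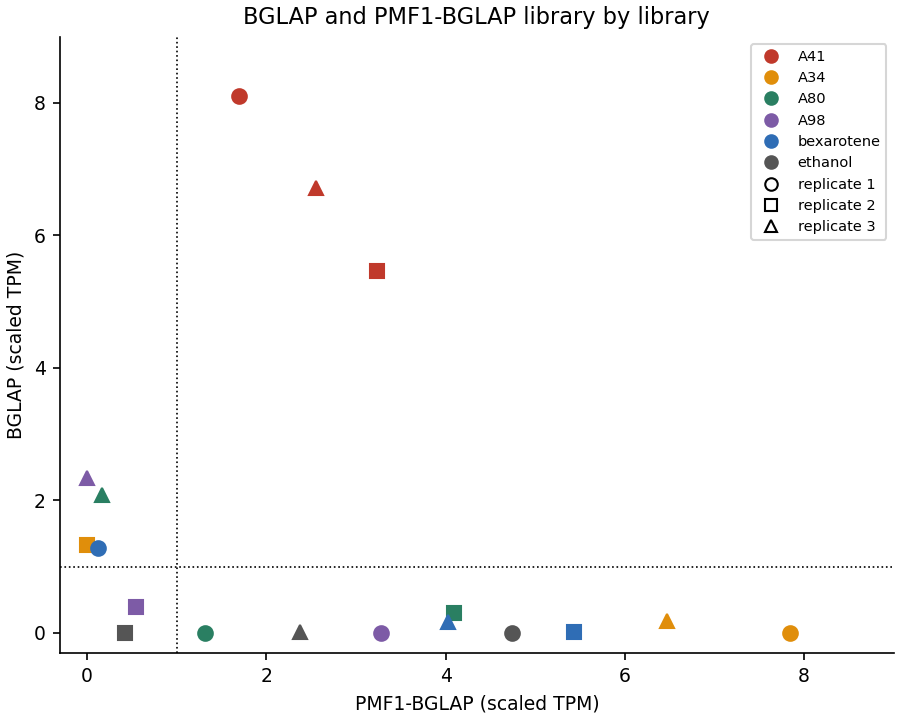
BGLAP against PMF1-BGLAP, both in scaled TPM, 1 point per library, with dotted lines at 1. The 15 libraries other than A41 lie along one axis or the other, none above 1 on both, and the 3 A41 libraries lie above 1 on both.

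The 4 comparisons without A41 asked whether the 6 genes other than RAB11FIP4 moved with another rexinoid. They share the ethanol libraries with the A41 contrast that chose the genes. RAB11FIP4 was left out, because its pattern chose it and because it passed the filter only through its high libraries. None of the 6 passed the threshold of 0.05 in A34, A80, A98 or bexarotene against ethanol (limma on log2(scaled TPM + 1), adjusted over 18269 genes), where 0.0766%, 0.0493%, 0.0383% and 0.0602% of all tested genes did (in A34, 0.0657% higher and 0.0109% lower; in the others, all of them higher). At an unadjusted p under 0.05 there was 1 of 24 tests, PMF1 in bexarotene, beside 5.8% of all genes in bexarotene, 6.66% in A98, 9.45% in A80 and 10.7% in A34. None passed the test for any difference among these 5 groups either (smallest adjusted p = 0.71, limma), where 0.0602% of genes did.

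PMF1 had 41.4, 33.2 and 32.5 scaled TPM in bexarotene and 27.97, 28.9 and 28.1 in ethanol. The difference was 0.31 ± 0.11 on the log2 scale (SE, 95% interval 0.09 to 0.54) and did not pass (adjusted p = 0.83, limma). The highest of these libraries, bexarotene replicate 1, is rich in ribosomal RNA, and without it the difference was 0.21. On the TPM as deposited it was 0.12. The sum of PMF1, BGLAP and PMF1-BGLAP, which reassignment among the 3 genes changes only through their lengths, was 42.8, 38.7 and 36.6 scaled TPM in bexarotene, and 32.7, 29.3 and 30.5 in ethanol. Its difference was 0.34 ± 0.07 (SE, 95% interval 0.18 to 0.50), and it did not pass over genes and sums together (adjusted p = 0.39, limma). On the TPM as deposited it was 0.14.

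The same sum was 42.5, 48.5 and 43.0 scaled TPM in A41, and 33.8, 33.6 and 36.4 in A34. It was 33.0, 30.4 and 31.3 in A80 and 33.3, 31.4 and 31.5 in A98. Group means thus ordered as A41 (44.7 ± 3.30), bexarotene (39.4 ± 3.12), A34 (34.6 ± 1.55), A98 (32.1 ± 1.09), A80 (31.5 ± 1.30) and ethanol (30.8 ± 1.73; SD, n = 3 each). Among neighbours in that order, A41 and bexarotene overlapped, as did A98 and A80, and A80 and ethanol. The libraries of bexarotene lay just above those of A34, and those of A34 just above those of A98, with narrow gaps. For A34 against ethanol the difference was 0.16 ± 0.07 (SE) and did not pass (adjusted p = 0.46, limma).

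The A34 mean at STX16-NPEPL1 rested on replicate 3, and the gene did not pass. The difference of A34 minus ethanol at STX16-NPEPL1 was 2.71 ± 1.30 on the log2 scale (SE, 95% interval -0.04 to 5.47, adjusted p = 0.48, limma), and 0.27 without A34 replicate 3. The summed STX16, NPEPL1 and STX16-NPEPL1 was 165 ± 186 scaled TPM in A34 and 52.5 ± 4.41 in ethanol (SD, n = 3 each), a log2 difference of 1.04, or 0.14 without that library. In A80, A98 and bexarotene the same sum averaged 56.8 ± 3.32, 50.4 ± 3.10 and 51.5 ± 3.59 scaled TPM (SD, n = 3 each). With 1 high library in a group the pooled spread is wide: for STX16-NPEPL1 in A98 against ethanol the 95% interval ran from -3.11 to 2.41. For STX16 itself it was narrow, between -0.26 and 0.11 in A98 and between -0.08 and 0.30 in A80.

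Bexarotene and the 3 coded rexinoids other than A41 were also set against each other at the same dose and time, in 6 pairs added after the first results were seen. None of 36 tests of the 6 genes other than RAB11FIP4 passed (limma, adjusted over genes and pairs, smallest adjusted p = 0.96), where 0.00274% of all such tests did. An unadjusted p under 0.05 was found for 6, beside 5.04% of all such tests. Of these, 3 were STX16-NPEPL1 in A34 against A80, A98 and bexarotene, which rest on A34 replicate 3. The other 3 were PMF1, lower in A34, A80 and A98 than in bexarotene. For A80 against bexarotene, PMF1 averaged 28.9 and 35.7 scaled TPM, a difference of -0.29 with a 95% interval of -0.52 to -0.07. The intervals for STX16 in the 6 pairs lay between -0.26 and 0.37, so larger log2 differences between these compounds were outside them. No label gives the structures of the coded compounds.

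Genes that work with the members were counted from lists fixed for this report. Of the 18 trans-Golgi SNARE genes, partners of syntaxin 16, all were tested and none passed in any of the 5 rexinoids against ethanol. In A41, where 0.744% of all tested genes passed (0.487% higher and 0.257% lower), their median log2 difference was 0.01, beside -0.01 over all genes. STX8 had the smallest unadjusted p of the list, with 42.7 ± 3.94 scaled TPM in A98 and 33.4 ± 2.28 in ethanol (SD, n = 3 each, adjusted p = 0.59, limma). BET1L had 22.0 ± 1.73 in A80 and 18.4 ± 0.733 in ethanol (adjusted p = 0.50, limma). None of the 13 tested aminopeptidase genes passed, with a median of 0.03 in A41. Among them LNPEP had 18.4 ± 2.97 in bexarotene and 22.1 ± 1.85 in ethanol (adjusted p = 0.83, limma), and DNPEP had 27.1 ± 2.73 in A80 and 22.6 ± 0.253 in ethanol (adjusted p = 0.47, limma).

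Of RAB11 and its effectors, 11 other than RAB11FIP4 were tested and none passed, with a median of 0.03 in A41. RAB11FIP2, a class I effector, had 10.2 ± 1.42 scaled TPM in A41 and 12.2 ± 0.660 in ethanol (SD, n = 3 each, adjusted p = 0.38, limma). RAB11FIP5 had 26.8 ± 0.596 in A80 and 22.4 ± 1.80 in ethanol (adjusted p = 0.44, limma). None of the 11 MIS12 and other kinetochore genes passed, with a median of 0.06 in A41. SPC24, of the NDC80 complex, had 36.8 ± 1.86 in A41 and 31.2 ± 1.72 in ethanol (adjusted p = 0.42, limma), and NSL1, of the MIS12 complex like PMF1, had 4.70 ± 0.778 in bexarotene and 7.97 ± 2.55 in ethanol (adjusted p = 0.83, limma). Across these 4 lists, 2 or fewer genes per list and comparison had an unadjusted p under 0.05 (limma). Over all tested genes the share was 5.8% in bexarotene to 10.7% in A34, with 10.4% in A41.

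The list of bone matrix and vitamin K genes gave 1 call, the vitamin D receptor gene VDR in A41. VDR had 28.8, 29.1 and 31.2 scaled TPM in A41 and 23.9, 18.9 and 20.2 in ethanol, a difference of 0.49 ± 0.09 on the log2 scale (SE, adjusted p = 0.021, limma). The A41 libraries lay above all 15 others. The call was lost without the libraries rich in ribosomal RNA (adjusted p = 0.24) and without A41 replicate 2 (adjusted p = 0.063) or 3 (0.096) or ethanol replicate 2 (0.13) or 3 (0.11), with a range of 0.010 to 0.87 over all alternatives (limma). The other 7 tested genes of the list did not pass in A41, and the median over the 8 was -0.03. SPARC, a bone and matrix glycoprotein, averaged 109 in A41 and 131 in ethanol (adjusted p = 0.22, limma), and RUNX2, the osteoblast transcription factor, had 16.9 ± 1.10 in A41 and 12.7 ± 1.24 in ethanol (SD, n = 3 each, adjusted p = 0.11, limma). Over the 18 libraries the genes most like BGLAP were ARHGAP23 (Pearson correlation 0.890), VDR (0.880), LIMK1, STRA6 and PTPRJ (0.876 to 0.854). The A41 values that chose BGLAP enter these correlations, so they are no support for a link between VDR and BGLAP. Over the 12 libraries of A80, A98, bexarotene and ethanol these 5 correlations were 0.458 to 0.803, and 0.566 for VDR. The points share libraries.

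Expressed genes within 50 kb of the 3 loci did not pass in any comparison. These were the 9 with a mean of at least 1 scaled TPM, and in A41 against ethanol their median log2 difference was 0.15, beside -0.01 over all genes. SLC25A44, which ends 186 bases before PMF1-BGLAP begins, lay between 12.1 and 21.7 scaled TPM, and SMG5, a nonsense-mediated decay factor on the other side of BGLAP, between 44.8 and 58.2. NF1, which ends 9559 bases before RAB11FIP4, had 19.0 ± 2.79 in A41 and 16.9 ± 1.41 in ethanol (SD, n = 3 each, adjusted p = 0.65, limma). APCDD1L-DT, before STX16, had the smallest p in A41, with 20.6 ± 2.30 in A41 and 27.5 ± 2.37 in ethanol (adjusted p = 0.16, limma). TMEM79, GLMP, RNU6ATAC7P, AK4P1 and AL050327.1 were the others.

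Other annotated readthrough genes also varied between libraries. Of 128, 61 were tested, and none passed in any of the 5 comparisons. In each, 3 to 6 had an unadjusted p under 0.05 (limma), beside 5.8% to 10.7% of all tested genes. Among the 61, 27 were listed at 0 in some library and above 1 scaled TPM in another. The ratio of the highest to the lowest library, on scaled TPM + 1, had a median of 3.69 over the 61. For PMF1-BGLAP it was 8.85, which 12 of the 61 reached. For STX16-NPEPL1 it was 357, above the 92.1 of BIVM-ERCC5, the largest of the 61. The count and the ratios were not set beside all tested genes, so nothing particular to readthrough genes is read from them. BIVM-ERCC5 had 91.1 scaled TPM in ethanol replicate 2 and 0 in the other ethanol libraries. In A34 it had 40.5 and 19.5 in replicates 1 and 2 but 0 in replicate 3. RAB4B-EGLN2 had 18.7 in A34 replicate 3 and at most 5.64 elsewhere. SENP3-EIF4A1 had 70.1 in bexarotene replicate 2 against 2.61 in replicate 1. FAM47E-STBD1 and CKLF-CMTM1 ranged up to 8.72 and 6.33 with libraries at 0. The highest library of these 5 genes was in A34 for 3 of them, in ethanol for BIVM-ERCC5 and in bexarotene for SENP3-EIF4A1.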

How the data were processed

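The submitters' processing notes name the tools STAR, MultiQC and StringTie and the genome build GRCh38. Tool versions, annotation release and whether strand was used are not stated there. The authors deposited 1 table of gene abundances per library with 3 measures: TPM and FPKM, each normalised by the authors' software, and Coverage, a signal in mean reads per base that still holds depth. A count model was not fitted, because these measures are not counts. Repeated entries of a gene ID (2 to 3 per library) were summed. The largest ratio of Coverage to FPKM in a library gave its aligned bases.

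Scaled TPM is TPM over a factor for each library (0.417 to 1.21), its median ratio to the geometric mean over 21776 genes above 0 throughout. Genes reaching 1 TPM in 3 or more libraries, 18269 in all, were fitted as log2(scaled TPM + 1), a scale that understates changes of low genes, for 6 groups in 1 model with limma 3.58.1 in R 4.3.3 (12 residual degrees of freedom). All tests were two-sided, p-values were adjusted by Benjamini and Hochberg across the 18269 genes and called at 0.05, and intervals are 95%. The sums over overlapping genes at 2 loci were added to the same fit. The steps were tested on simulated data. No 2 libraries held identical values. Transcript lengths came from GENCODE 29, and 58444 of the 60675 IDs were in it.

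The members and lists were chosen with earlier results of these data known. The genes named are the 7 members, per list those past 0.05 (otherwise the 2 of smallest p), expressed neighbours within 50 kb, the 5 other readthrough genes of largest group ratio, and the 5 genes most correlated with STX16-NPEPL1, BGLAP and RAB11FIP4. CYP26B1, SPARC and RUNX2 were added after their values were seen. Alternatives were a pseudocount of 0.1, no filter on low values, TPM as deposited, a replicate block, leaving out each library or the 3 rich in ribosomal RNA (over 20% of TPM), and Coverage.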

Additional observations from a re-analysis of the deposited data

How the results depend on the processing

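None of the 6 members other than RAB11FIP4 and no locus sum passed the threshold in A34, A80, A98 or bexarotene against ethanol under any alternative run (264 member values, smallest adjusted p = 0.36, and 96 values of the sums, smallest 0.25; limma). Uncalled signs changed in 24 and 7 of these. Numbers of genes called over the whole table depended more on the processing. In A41 against ethanol 136 genes passed, 4 on the TPM as deposited, 49 without the libraries rich in ribosomal RNA, and 73 to 115 with 1 library left out. In A34 there were 14, with 0 on the TPM as deposited and 8 to 17 with 1 left out; in A80 9, with 14 without a filter, 0 on the TPM as deposited, 2 without the ribosomal RNA-rich libraries and 4 to 7. In A98 there were 7, with 12, 2 on the TPM as deposited, and 5 to 8; in bexarotene 11, with 21 without a filter, 0 on the TPM as deposited, 3 without the rich libraries and 5 to 9. The test among the 5 groups other than A41 called 11, with 27 without a filter, 0 on the TPM as deposited, 7 without the rich libraries and 6 to 13. The single list call, VDR in A41, became 0 on the TPM as deposited and without the rich libraries, and 0 to 1 with 1 left out. The TPM as deposited moved the median gene by -0.16 in bexarotene, 0.15 in A98 and -0.27 in A41. The STX16 sum in bexarotene was -0.03 (0.044 by coverage, -0.096 to 0.018 with 1 left out) and in A98 -0.06 (0.12 on the TPM as deposited, 0.028 by coverage). The BGLAP sum in A80 was 0.03, -0.0030 without the rich libraries and -0.0030 to 0.074 with 1 left out. In A34 the STX16 sum ran from 0.14 without replicate 3 to 1.51. The cause was not tested, except that leaving out libraries leaves fewer to estimate the spread. By coverage the A41 differences of STX16-NPEPL1, BGLAP and RAB11FIP4 were 4.09, 1.59 and 0.24, since coverage averages over all exonic bases and gives smaller values beside the added 1.

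The replicate numbers of the titles were used as names only, since the labels tie them to no culture or day. The residual correlation was over 0.1 in 11 of 45 same-numbered pairs (median 0.029) and in 7 of 90 others (median -0.0059). Of the 18 libraries, 9 correlated best with their own number, so some pairing may be present. Only the title numbers were checked in this way. A replicate block gave 181 genes in A34, 118 in A80 and 40 in the test among 5 groups, and called VKORC1 among the list genes in A34 and in A80 (1 each). It called no member.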
